A study of Mus musculus with 16 samples.

Results

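The question addressed here was whether 1 copy of the ob allele of Lep changed gene expression in mouse inguinal white fat (iWAT), which lies under the skin of the groin, when the libraries holding lymph node RNA were set aside. The libraries were selected on Glycam1, an endothelial mucin of the high endothelial venules through which lymphocytes enter lymph nodes. Of 16 libraries, 10 had Glycam1 at or below 1 CPM (counts per mega-count, M, of the library's total): 7 carriers of the ob allele (Lepob/+ replicates 1, 2 and 4, and SOD1G93A-Lepob/+ replicates 1 to 4) and 3 non-carriers (WT replicates 3 and 4, and SOD1G93A replicate 3). The 6 libraries left out were 5 non-carriers (WT replicates 1 and 2, and SOD1G93A replicates 1, 2 and 4) and 1 carrier (Lepob/+ replicate 3). In the 10 libraries kept, no gene passed the edgeR threshold between carriers and non-carriers. Genes of fatty acid and cholesterol synthesis were on balance lower in carriers, interferon-stimulated genes were on balance higher, and the Lep transcript itself overlapped between the groups. In all these lists fewer genes had an unadjusted p under 0.05 when WT replicate 3 or SOD1G93A replicate 3 was left out. For fatty acid synthesis and interferon-stimulated genes, the 1 carrier left out went the other way.

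Leptin is a hormone secreted by adipocytes, mainly of white fat, in proportion to fat stores. It acts through the receptor Lepr, whose long form recruits the kinase Jak2 and the transcription factor Stat3, and Socs3 and Ptpn1 restrain that signal. In the hypothalamus it lowers food intake and raises energy expenditure. In fat it has been linked to less fatty acid synthesis. The ob allele carries a nonsense mutation, so its transcript can still be counted, and the counts over Lep do not check the genotype. The inguinal pad encloses a lymph node, and a piece of fat cut near it can hold lymph node RNA.

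The mice were C57BL/6 females by their labels, aged 90 days. WT mice had neither of the alleles studied. Lepob/+ mice had 1 ob allele beside a normal Lep allele. SOD1G93A mice had a high-copy transgene of mutant human SOD1, which causes motor neuron disease, and SOD1G93A-Lepob/+ mice had both. The series held 4 libraries of each genotype. The transgene was therefore present in 4 of the 7 carriers and in 1 of the 3 non-carriers, and the ob allele and the transgene were not balanced among the libraries compared. The labels number the replicates but do not say which mice were littermates, and the p-values measure the spread between these libraries. In bulk tissue, fewer cells of a type and less RNA per cell cannot be told apart.

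Glycam1 had 0 counts in 9 of the 10 libraries kept and 3 counts in Lepob/+ replicate 1, which is 0.0604 CPM of its total. The 6 libraries left out had 227 to 665 CPM, so no library lay near the limit. The summed level of the 28 T cell genes listed was 31.1 to 72.0 CPM in the libraries kept and 1341 to 2736 CPM in those left out, and this follows from the selection. Total counts were 36.8 to 61.9 M in the libraries kept and 38 to 43.9 M in the others. Skeletal muscle transcripts stood apart in a pair of libraries: the muscle list took 24.35% of the counts in Lepob/+ replicate 4 and 1.08% in WT replicate 3, against 0.160% to 0.207% in the other 8. Muscle genes were left aside in what follows. The library labelled SOD1G93A-Lepob/+ replicate 3 had 0 counts of Xist, the transcript of the inactive X chromosome, and 1756 counts of the Y-linked genes listed, and it goes against its label as a female. The defining genes of mature adipocytes were high throughout, with a summed level of 23910 to 47280 CPM.

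**Figure D1:**
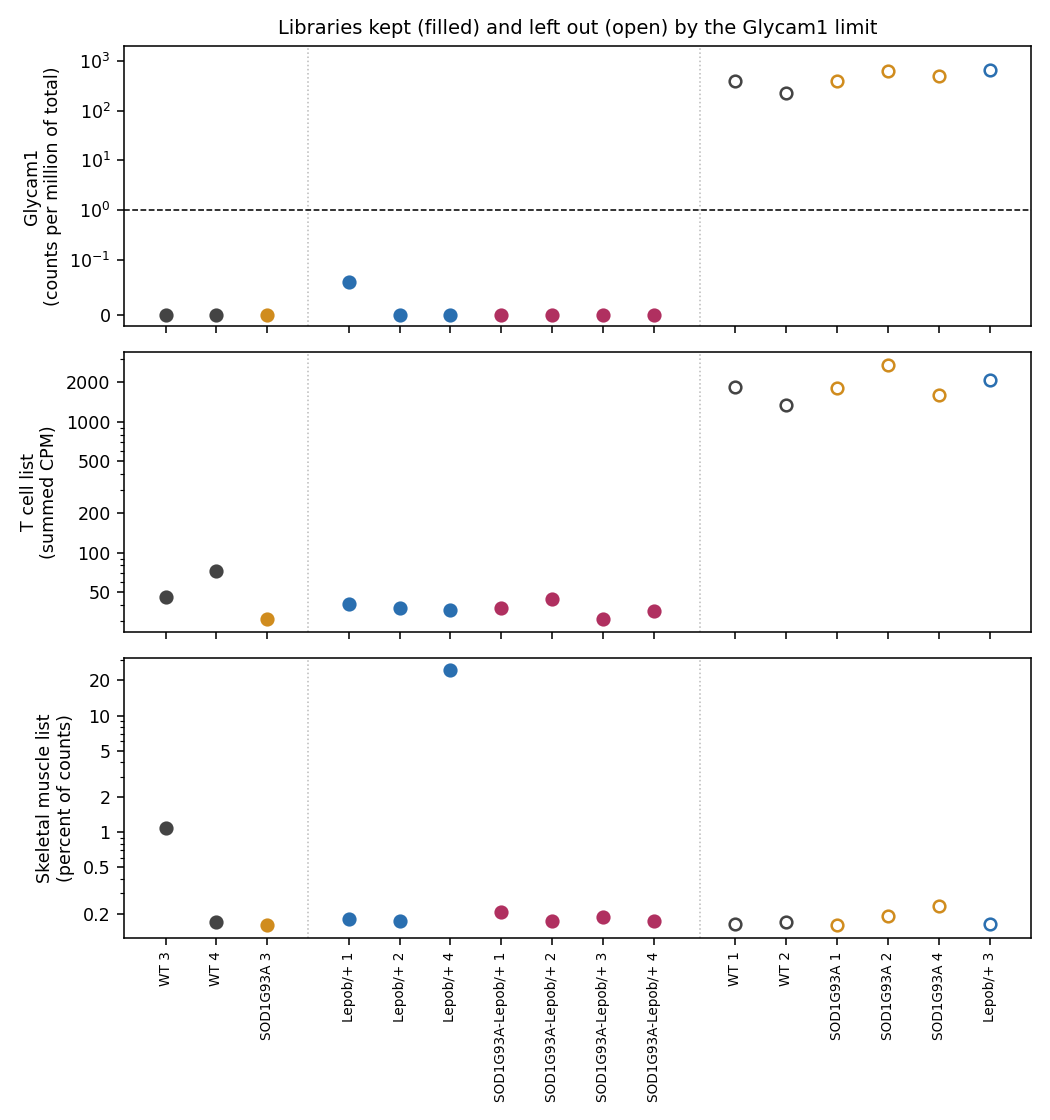
Glycam1 (CPM of the column total, log axis with 0 shown, dashed line at the limit of 1), the summed T cell list (CPM, log axis) and the skeletal muscle list (percent of counts, log axis) in each library. Filled points are the 10 libraries kept and open points the 6 left out, in dark grey for WT, orange for SOD1G93A, blue for Lepob/+ and dark pink for SOD1G93A-Lepob/+. The 2 Glycam1 levels lie far apart, and Lepob/+ replicate 4 holds 24.35% muscle transcripts.

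The Lep transcript did not separate the groups. Its level, in CPM after TMM scaling, was 657 in WT replicate 3, 605 in WT replicate 4 and 939 in SOD1G93A replicate 3. Among the 7 carriers the lowest level was 426, the median 552 and the highest 1749, the last in the library labelled SOD1G93A-Lepob/+ replicate 3. The other 6 carriers lay between 426 and 660, and the carriers lay on both sides of the non-carriers. The log2 fold change of carriers over non-carriers was -0.01 ± 0.42 (SE), with a 95% interval from -0.94 to 0.91. A two-sided exact permutation test over the libraries gave p = 0.683 for a difference of -0.15 in mean log2(CPM + 1), where the smallest p that 120 arrangements allow is 0.0167. The 6 libraries left out had Lep levels of 178 to 353 CPM, below every library kept. Lep lies at chr6:29060220-29073877 (GRCm38). Of the 53 genes tested whose start lay within 5 Mb of that of Lep on either side, 30 were higher and 23 lower in carriers, with a median log2 fold change of 0.03.

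The leptin axis list held 12 genes, and 10 of them had a positive log2 fold change, with a median of 0.15 beside 0.03 over all 19001 genes tested. At an unadjusted edgeR p under 0.05, 2 were higher (Cish and Jak2) and 0 lower, where 1.96% of all genes were higher, and 0 passed after adjustment. In 3 of the 12, Cish, Jak2 and Ptpn2, all carriers lay above all non-carriers, as for 0.726% of all genes. Cish, a feedback inhibitor of cytokine signalling through Stat5, had levels of 8.14, 7.48 and 1.63 CPM in WT replicate 3, WT replicate 4 and SOD1G93A replicate 3. In carriers its lowest level was 12.4, its median 22.3 and its highest 29.9 CPM. Every carrier therefore lay above every non-carrier. The log2 fold change was 1.89 ± 0.485 (SE), with an edgeR adjusted p of 0.788 and a DESeq2 adjusted p of 0.0103. The libraries left out ran from 6.40 CPM in SOD1G93A replicate 2 to 31.0 CPM in WT replicate 1, with 19.7 CPM in Lepob/+ replicate 3, so non-carriers there reached the level of carriers.

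Jak2 had 38.1, 49.4 and 48.9 CPM in the non-carriers and 51.8 to 87.3 CPM in the carriers, a log2 fold change of 0.42 ± 0.18 (edgeR unadjusted p = 0.0433). Its highest level was in Lepob/+ replicate 4, the muscle-rich library. Ptpn2, a phosphatase that acts on Jak and Stat proteins, had 13.1 to 13.8 CPM against 14.0 to 16.4 CPM, again without overlap. Both genes reached at least 15.8 CPM (Ptpn2) and 62.5 CPM (Jak2) in every library left out. Lepr was low, at 2.56 to 5.73 CPM in non-carriers and 3.98 to 6.04 CPM in carriers. The levels of Stat3, Socs3, Ptpn1, Bcl3, Sh2b1, Irs1 and Irs2, the last 3 being adaptors of the leptin and insulin receptors or their kinases, overlapped between the groups, with log2 fold changes from -0.07 to 0.36.

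Across all 19001 genes tested, the edgeR adjusted p was under 0.05 for 0 higher and 0 lower genes (0% each), and the smallest adjusted p was 0.314. At an unadjusted p under 0.05, 373 genes were higher in carriers (1.96%) and 435 lower (2.29%). All 7 carriers lay above all 3 non-carriers for 138 genes (0.726%) and below them for 190 genes (1%). DESeq2, run on the same 10 libraries, called 32 genes higher (0.147% of 21718) and 24 lower (0.111%). Voom in limma, with library weights that set Lepob/+ replicate 4 at 0.183, called 4 higher (0.0211%) and 7 lower (0.0368%), and 9 of its 11 calls were among those of DESeq2. Without Lepob/+ replicate 4, edgeR called 2 genes higher and 1 lower, with 608 and 773 at an unadjusted p under 0.05. Without SOD1G93A-Lepob/+ replicate 4 it called 2 higher and 3 lower, and without WT replicate 3 it called 0, with 275 lower at an unadjusted p under 0.05. A call by DESeq2 or voom is named as such.

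Of the 10 named genes lower in carriers, all 10 had non-overlapping levels, and all 10 were called by DESeq2. Their rank by p chose them, so these counts describe the choice. Slc25a48, a mitochondrial inner-membrane carrier, had 2.79 CPM in WT replicate 3, 3.44 in WT replicate 4 and 4.29 in SOD1G93A replicate 3. In carriers it ran from 0.517 through a median of 0.825 to 1.5 CPM. Every carrier lay below every non-carrier, with a log2 fold change of -1.95 ± 0.29 (SE), edgeR adjusted p = 0.314, DESeq2 adjusted p = 6.04e-06 and voom adjusted p = 0.0185. In the libraries left out the pattern did not recur: WT replicates 1 and 2 had 0.679 and 0.486 CPM, as low as carriers, and the 1 carrier, Lepob/+ replicate 3, had 5.01 CPM, above all 15 other libraries.

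Hsd11b1 encodes the enzyme that regenerates active glucocorticoid within cells. It had 44.7, 58.2 and 101 CPM in the 3 non-carriers and 17.1 to 30.5 CPM in carriers, with a median of 22.8. The groups did not overlap, at a log2 fold change of -1.55 ± 0.25 (SE; DESeq2 adjusted p = 0.000175). The 5 non-carriers left out had 31.7 to 55.0 CPM, above every carrier kept, but the carrier left out had 93.5 CPM. Ppp1r3b, a glycogen-targeting subunit of protein phosphatase 1, had 26.0, 20.5 and 37.1 CPM against 9.70 to 15.5 CPM. Its log2 fold change was -1.15 ± 0.19 (SE), with a DESeq2 adjusted p of 0.000403 and a voom adjusted p of 0.0464. The carrier left out had the highest Ppp1r3b level of the series, at 46.7 CPM.

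Bmyc, a Myc relative, had 24.7 to 29.4 CPM in non-carriers and 14.4 to 19.1 CPM in carriers (log2 fold change -0.70 ± 0.11). Mapk8ip1, a scaffold of the JNK kinases, had 42.5 to 51.5 CPM against 22.6 to 35.2 CPM. Ptges, the inducible prostaglandin E synthase, had 146, 150 and 138 CPM against 45.5 to 95.7 CPM. None of these 3 genes overlapped between the groups. For Mapk8ip1 and Ptges, however, the 5 non-carriers left out had 20.8 to 30.8 CPM and 47.5 to 97.3 CPM, at the level of the carriers kept. For Bmyc they had 16.5 to 23.6 CPM, partly within the range of the carriers kept, and the carrier left out had 22.2 CPM. The other named genes of this direction were Fam69b, Sorcs2 (a neuronal sorting receptor), Ly6h and Tspan4 (a tetraspanin), with log2 fold changes from -1.52 to -0.67. In Fam69b, Ly6h and Tspan4 the 5 non-carriers left out reached 8.63, 4.08 and 53.6 CPM, none above the highest carrier kept. For Sorcs2 they had 9.35 to 25.3 CPM, beside 4.44 to 12.3 CPM in the carriers kept.

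Of the 10 named genes higher in carriers, 9 had non-overlapping levels and all 10 were called by DESeq2, again as a result of how they were chosen. Nek7, a kinase of mitosis and of the NLRP3 inflammasome, had 22.5, 24.5 and 23.2 CPM in WT replicate 3, WT replicate 4 and SOD1G93A replicate 3. In carriers its lowest level was 52.7 CPM, in Lepob/+ replicate 4, its median 125 and its highest 188 CPM. The groups did not overlap, and the log2 fold change of 2.39 ± 0.33 (SE) had an edgeR adjusted p of 0.314, a DESeq2 adjusted p of 1.13e-10 and a voom adjusted p of 0.000696. Without Lepob/+ replicate 4 the edgeR adjusted p of Nek7 was 0.00243. The libraries left out took both levels, with 126, 113 and 143 CPM in WT replicates 1 and 2 and SOD1G93A replicate 1, 25.3 and 20 CPM in SOD1G93A replicates 2 and 4, and 144 CPM in the carrier. Over the series, 5 non-carriers had 20 to 25.3 CPM, and the other 3 lay within the range of the carriers.

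Tmem127, which encodes a membrane protein of endosomes and lysosomes, also took a pair of distinct levels. It had 6.42, 8.82 and 8.91 CPM in the non-carriers, 105 to 128 CPM in 6 carriers and 7.67 CPM in SOD1G93A-Lepob/+ replicate 4. In the libraries left out it had 6.90, 10.9 and 7.15 CPM in WT replicate 1 and SOD1G93A replicates 2 and 4, and 116 to 124 CPM in the other 3. Its levels were therefore either 6.42 to 10.9 CPM or 105 to 128 CPM, with nothing between, and both carriers and non-carriers held both. The log2 fold change was 3.69 ± 0.74 (SE; DESeq2 adjusted p = 4.17e-07). Without SOD1G93A-Lepob/+ replicate 4, its edgeR adjusted p was 1.5e-05.

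Slc7a2, a transporter of arginine and other cationic amino acids, had 14.1, 24.7 and 5.73 CPM in non-carriers and 49.5 to 133 CPM in carriers, with a median of 95.5. The groups did not overlap, at a log2 fold change of 2.62 ± 0.46 (SE), with a DESeq2 adjusted p of 2.31e-07 and a voom adjusted p of 0.0379. All 5 non-carriers left out had higher levels than the 3 kept, from 35.9 to 109 CPM, and the carrier left out had 98.3 CPM. Thbs1, the matrix protein thrombospondin 1, had 42.6, 26.6 and 31.8 CPM against 59.4 to 190 CPM, a log2 fold change of 1.87 ± 0.37 (SE; DESeq2 adjusted p = 0.000141). Its level in the carrier left out was 31.2 CPM, below the 39.4 to 76.7 CPM of the 5 non-carriers left out.

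Spon1 (a secreted matrix protein) had 104 to 190 CPM in non-carriers and 240 to 445 CPM in carriers. Enah and Enc1 (both actin-binding proteins) had 18.2 to 21.2 against 24.8 to 35.4 CPM and 20.5 to 27.5 against 31.2 to 49.6 CPM. The log2 fold changes of Spon1, Enah and Enc1 were 1.14, 0.61 and 0.74, and none of the 3 overlapped between the groups. The carrier left out did not share this, with 57.3 CPM of Spon1, 17.2 of Enah and 26.4 of Enc1. The non-carriers left out had 105 to 258, 6.38 to 28.3 and 27.2 to 35.9 CPM. Hpca, Arhgef37 and Praf2 made up the rest, with log2 fold changes from 0.90 to 1.96. Hpca was low in both groups, at 0.457 to 0.822 CPM in non-carriers and 1.33 to 4.33 CPM in carriers. The carrier left out had 0.360 CPM of Hpca, 1.34 of Arhgef37 and 11.9 of Praf2, each below every non-carrier left out.

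**Figure D2:**
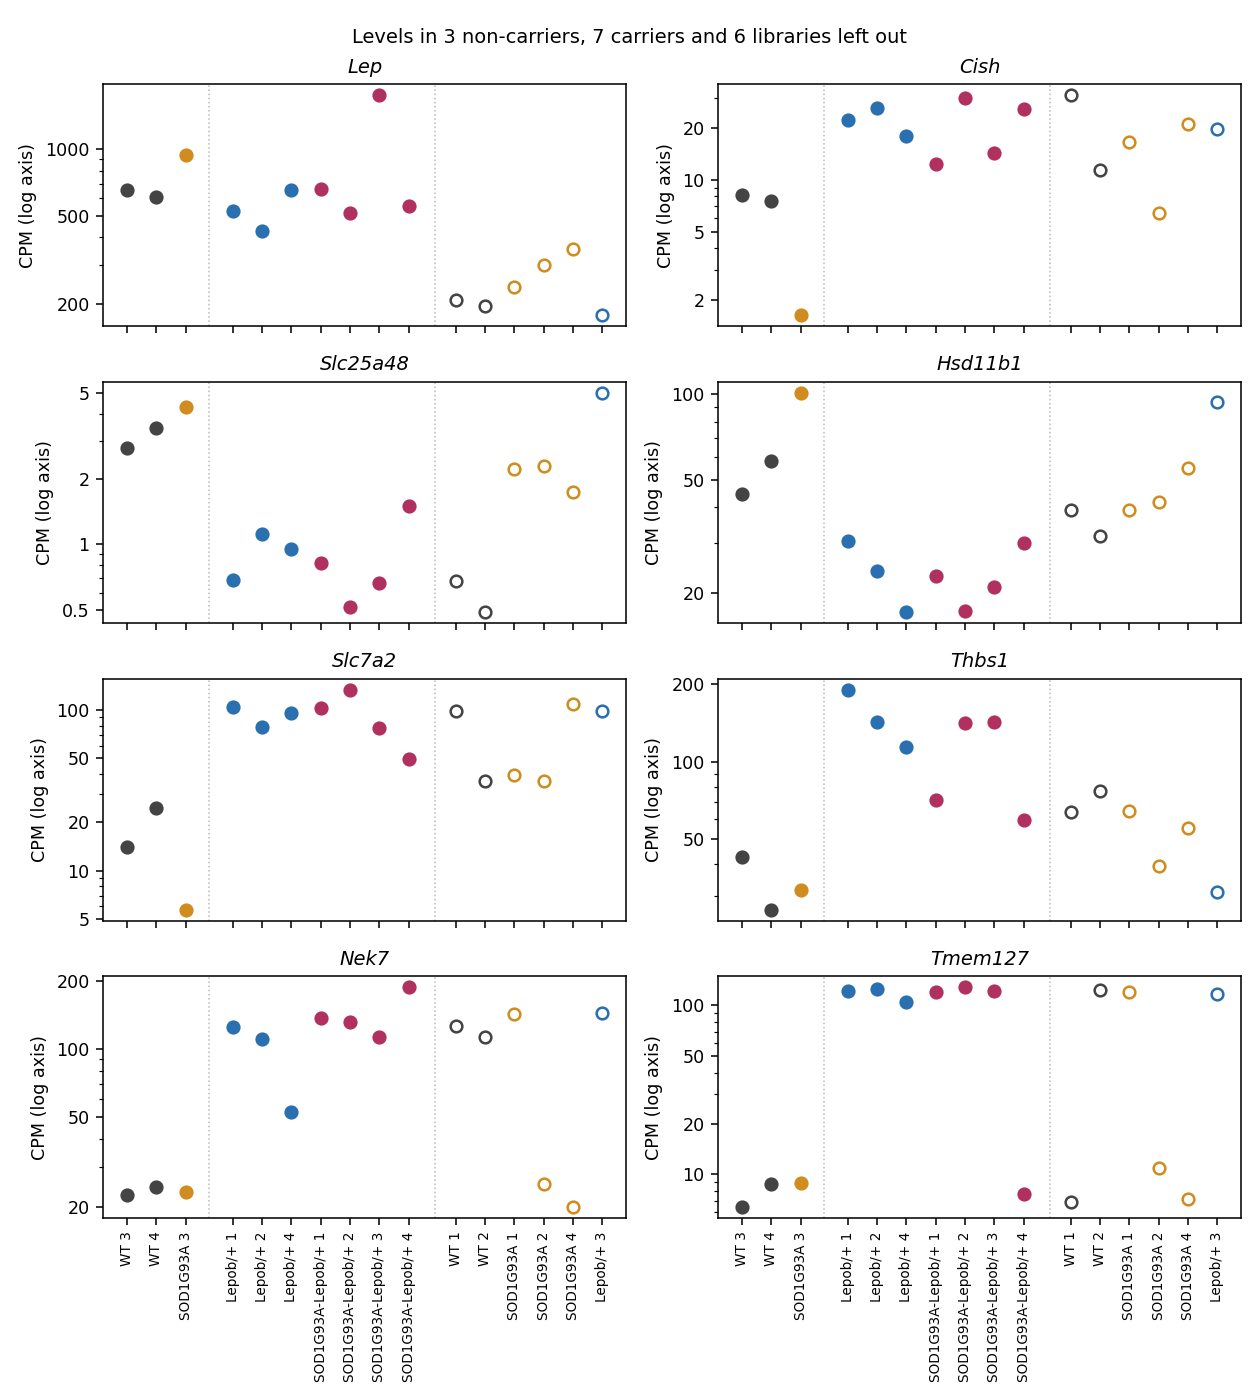
Levels of 8 genes (CPM after TMM scaling, log axes) in each library, with the 3 non-carriers kept at the left, the 7 carriers kept in the middle and the 6 libraries left out (open) at the right. Colours are dark grey for WT, orange for SOD1G93A, blue for Lepob/+ and dark pink for SOD1G93A-Lepob/+. Lep overlaps between the groups, Nek7 and Tmem127 take a pair of separate levels, and the non-carriers left out reach carrier levels in Nek7, Slc7a2 and Slc25a48.

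Genes of fatty acid synthesis were on balance lower in carriers. Of 27 genes of de novo lipogenesis, 26 were tested, and 24 had a negative log2 fold change. The median was -0.66, beside 0.03 over all genes tested. At an unadjusted p under 0.05, 14 were lower and 0 higher, where 2.29% of all genes were lower. Carriers lay wholly below non-carriers in 5, where 1% of all genes did. None passed an adjusted threshold, where the smallest adjusted p was 0.939 in edgeR, 0.219 in DESeq2 and 0.188 in voom. Leaving out SOD1G93A replicate 3 or WT replicate 3 reduced the 14 genes to 5 and 6, and 5 were lower without both muscle-rich libraries. With the replicate number as a block the count was 2, where 1.66% of all genes were lower at an unadjusted p under 0.05. In that fit 25 of 26 genes had a negative log2 fold change. The count was 19 with the transgene as a term and 20 with voom, where 2.64% and 5.16% of all genes were lower.

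Scd2, a stearoyl-CoA desaturase that makes monounsaturated fatty acids, had 665, 577 and 524 CPM in WT replicate 3, WT replicate 4 and SOD1G93A replicate 3. The carriers ran from 135 through a median of 177 to 406 CPM, and none reached a non-carrier (log2 fold change -1.21 ± 0.36, edgeR unadjusted p = 0.00691). The carriers themselves split, with 4 at 135 to 177 CPM and 3 at 363 to 406 CPM. Slc25a1, which exports the citrate used for fatty acid synthesis from mitochondria, had 765, 593 and 809 CPM against 115 to 591 CPM. Fads1 and Fads2, desaturases of polyunsaturated fatty acids, had log2 fold changes of -0.50 and -0.44. Fads2 overlapped between the groups by 1 library, since WT replicate 3 had 13.1 CPM and SOD1G93A-Lepob/+ replicate 1 had 13.6 CPM.

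Acly, which cleaves that citrate to acetyl-CoA, and Fasn, the fatty acid synthase, were named after their values were seen. Acly had a mean of 549 ± 553 CPM (SD, n = 7) in carriers and 1954 ± 152 CPM (SD, n = 3) in non-carriers. Fasn had 4929 ± 4550 CPM and 13710 ± 3880 CPM. The SD in carriers was about as large as the mean, and the Fasn groups overlapped. Srebf1, the transcription factor that drives many lipogenic genes, had 263 to 390 CPM in non-carriers and 200 to 314 CPM in carriers, a log2 fold change of -0.51 ± 0.185. Angptl8, an insulin-responsive inhibitor of lipoprotein lipase from another list, had 15.3 to 24.9 CPM against 3.17 to 12.8 CPM, without overlap.

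The mean level of the lipogenesis list, as log2(CPM + 1) over its 26 members, was 9.19, 8.78 and 9.18 in the non-carriers. Among carriers it ran from 7.36 through 7.83 to 8.94. SOD1G93A-Lepob/+ replicates 1 and 4, at 8.74 and 8.94, were near the non-carriers, and the other 5 carriers were at 7.89 or lower. In the libraries left out the direction was the opposite: Lepob/+ replicate 3, at 8.90, lay above all 5 non-carriers, which ran from 7.71 in WT replicate 2 to 8.83. It was above their median in 22 of 26 genes. WT replicate 2 was thus as low as carriers. Over all 16 libraries, 23 of 26 genes were still lower in carriers, with a median of -0.29 and 2 at an unadjusted p under 0.05.

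The mature adipocyte list had 15 of 22 genes lower and a median of -0.17. At an unadjusted p under 0.05, 2 were lower, where 2.29% of all genes were. Without WT replicate 4, 20 of 22 were lower (median -0.42), without WT replicate 3 the median was -0.05 and without SOD1G93A replicate 3 it was -0.09. Without both muscle-rich libraries the list split evenly, 11 against 11. The 2 genes were Dgat2, which makes triglycerides and also stands in the lipogenesis list, and Gpd1, which makes glycerol 3-phosphate. The summed level of the list was 47280, 29560 and 45410 CPM in the non-carriers and 23910 to 43150 CPM in the carriers. Its part in the lipogenesis values was not tested. Fatty acid oxidation (18 of 24 lower, median -0.07) and lipolysis (11 of 23 lower, median 0.01) had 0 genes at an unadjusted p under 0.05. Kcnk3, a potassium channel of thermogenic fat, was lower without overlap (71.2 to 87.8 against 23.0 to 51.7 CPM, log2 fold change -1.08 ± 0.255, edgeR adjusted p = 0.788). The 18 thermogenic genes tested as a whole split evenly, with 9 higher and 9 lower. Of 17 adipokines tested, 1 was lower and 1 higher at an unadjusted edgeR p under 0.05, where 2.29% and 1.96% of all genes were. These were Nrg4, with a log2 fold change of -0.88 ± 0.35, and Angptl4, with 0.51 ± 0.21, and both overlapped between the groups.

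Cholesterol synthesis genes lay in the same direction. All 23 genes listed were tested, 19 had a negative log2 fold change, and the median was -0.42. At an unadjusted p under 0.05, 10 were lower and 0 higher, where 2.29% of all genes were lower, and 5 had carriers wholly below non-carriers, where 1% of all genes did. Dhcr7, which makes the last step to cholesterol, had 34.4, 26.0 and 24.9 CPM in non-carriers and 13 to 21.6 CPM in carriers. Its log2 fold change was -0.70 ± 0.17 (SE), with an edgeR adjusted p of 0.788 and a DESeq2 adjusted p of 0.0994. Pmvk, Cyp51 and Sc5d, enzymes earlier in the pathway, had log2 fold changes of -0.68, -0.38 and -0.49. The result rested partly on WT replicate 3, the highest library of the list: without it, 2 genes were lower at an unadjusted p under 0.05 and the median was -0.20, and 2 were lower without both muscle-rich libraries. With the replicate number as a block 1 gene was lower at that threshold, where 1.66% of all genes were, and the median was -0.30. The count was 11 with the transgene as a term and 10 with voom, where 2.64% and 5.16% of all genes were lower. Of the libraries left out, WT replicates 1 and 2 had 22.3 and 15.8 CPM of Dhcr7, the 3 SOD1G93A libraries had 27.1 to 28.5 CPM, and the carrier had 29.0 CPM.

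**Figure D3:**
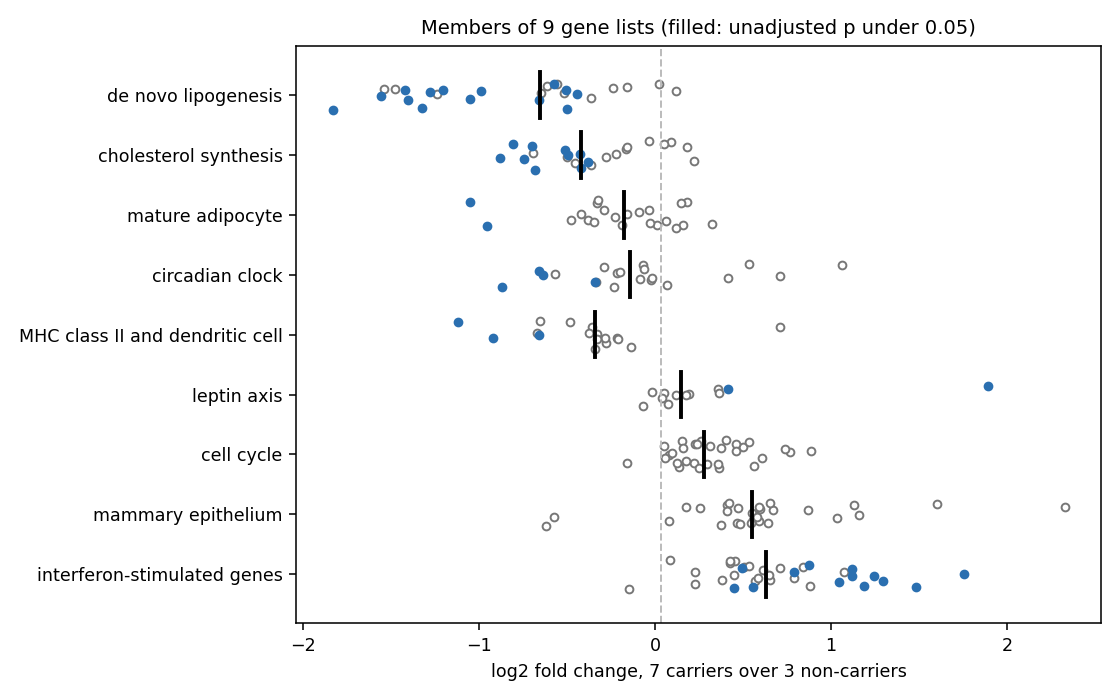
Log2 fold change of carriers over non-carriers (horizontal axis) for the members of 9 gene lists, 1 point per gene. Filled points had an unadjusted edgeR p under 0.05, black bars are list medians, and the dashed line is the median of all genes tested (0.03). The lipogenesis and cholesterol lists lie to the left, with medians of -0.66 and -0.42, and the interferon-stimulated list lies to the right, at 0.63.

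Interferon-stimulated genes were higher in carriers in 33 of 34 cases. Their median log2 fold change was 0.63. At an unadjusted p under 0.05, 13 were higher and 0 lower, where 1.96% of all genes were higher, but 0 had non-overlapping levels. The smallest adjusted p was 0.921 in edgeR, 0.152 in DESeq2 and 0.154 in voom. Isg15, a ubiquitin-like protein induced by interferon, had 13, 22.0 and 10.9 CPM in WT replicate 3, WT replicate 4 and SOD1G93A replicate 3. In carriers it ran from 18.0 through 38 to 95.4 CPM, and WT replicate 4 lay above the lowest pair of carriers. Its log2 fold change was 1.49 ± 0.51 (SE; edgeR unadjusted p = 0.0157). Ifit1, which binds viral RNA, had 19.3, 45.7 and 23.1 CPM against 33.4 to 112 CPM, and Ifih1, a sensor of double-stranded RNA, had 34.7 to 46.8 against 45.8 to 83.6 CPM. Iigp1, an interferon-inducible GTPase, had 54.3 to 92.6 against 86.7 to 171 CPM.

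The mean level of the list, as log2(CPM + 1), was 5.01, 5.73 and 5.19 in the non-carriers, and 5.38 to 6.78 in carriers, highest in Lepob/+ replicate 2. The 5 non-carriers left out had 5.01 to 6.57, with the highest value in SOD1G93A replicate 2. The carrier left out had 4.81, the lowest of the 16 libraries, and was below the median of the 5 non-carriers in 33 of 34 genes and below all 5 in 26, where this was so for 18.7% of all genes. The count of 13 genes was 1 without SOD1G93A replicate 3, 2 without WT replicate 3 or SOD1G93A-Lepob/+ replicate 2, and 5, 7 and 8 without Lepob/+ replicate 1, Lepob/+ replicate 2 and SOD1G93A-Lepob/+ replicate 1. Without both muscle-rich libraries it was 1, and 10 when the library with Y-linked counts was left out as well. Over all 16 libraries, 29 of 34 genes were higher, with a median of 0.33 and 0 at that threshold. The count of 13 was 24 with voom, where 5.37% of all genes were higher at that threshold. It was 20 with the transgene as a term, where 2.11% of all genes were. With the replicate number as a block it was 1, where 1.59% of all genes were, and 26 of 34 genes were higher. The summed macrophage list was 2380, 10430 and 4857 CPM in the non-carriers and 2556 to 10700 CPM in carriers, and its part in the interferon values was not tested.

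The promoters of many of these genes hold a known motif, a property of the list that does not depend on these libraries. The interferon-stimulated response element, searched as GAAA, any 2 bases and GAAA on both strands from 250 bases before to 50 bases after the start, was found in 16 of the 24 of 34 listed genes that had a promoter sequence (66.7%), and 8 lacked it. It was found in 1079 of all 27025 genes with a promoter (3.99%), in 0 of 22 lipogenesis genes and in 0 of 15 cholesterol genes. The sterol element, searched as TCACNCCAC, was found in 1 of 22 lipogenesis genes (Mlxipl), in 1 of 15 cholesterol genes (Hmgcs1) and in 1.44% of all genes. Stretches upstream of a pair of named interferon-stimulated genes are shown, since both hold several overlapping or neighbouring copies, with the matches in capitals (RefSeq, GRCm38.p6, 5′ to 3′ along the gene). A match is a description of the letters and no measure of binding.
Isg15 (chr4:156200850-156200921, minus strand): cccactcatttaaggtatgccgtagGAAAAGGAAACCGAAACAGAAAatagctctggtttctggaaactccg
Ifit1 (chr19:34640760-34640838, plus strand): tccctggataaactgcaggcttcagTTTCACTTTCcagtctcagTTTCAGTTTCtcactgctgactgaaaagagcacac

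**Figure D4:**
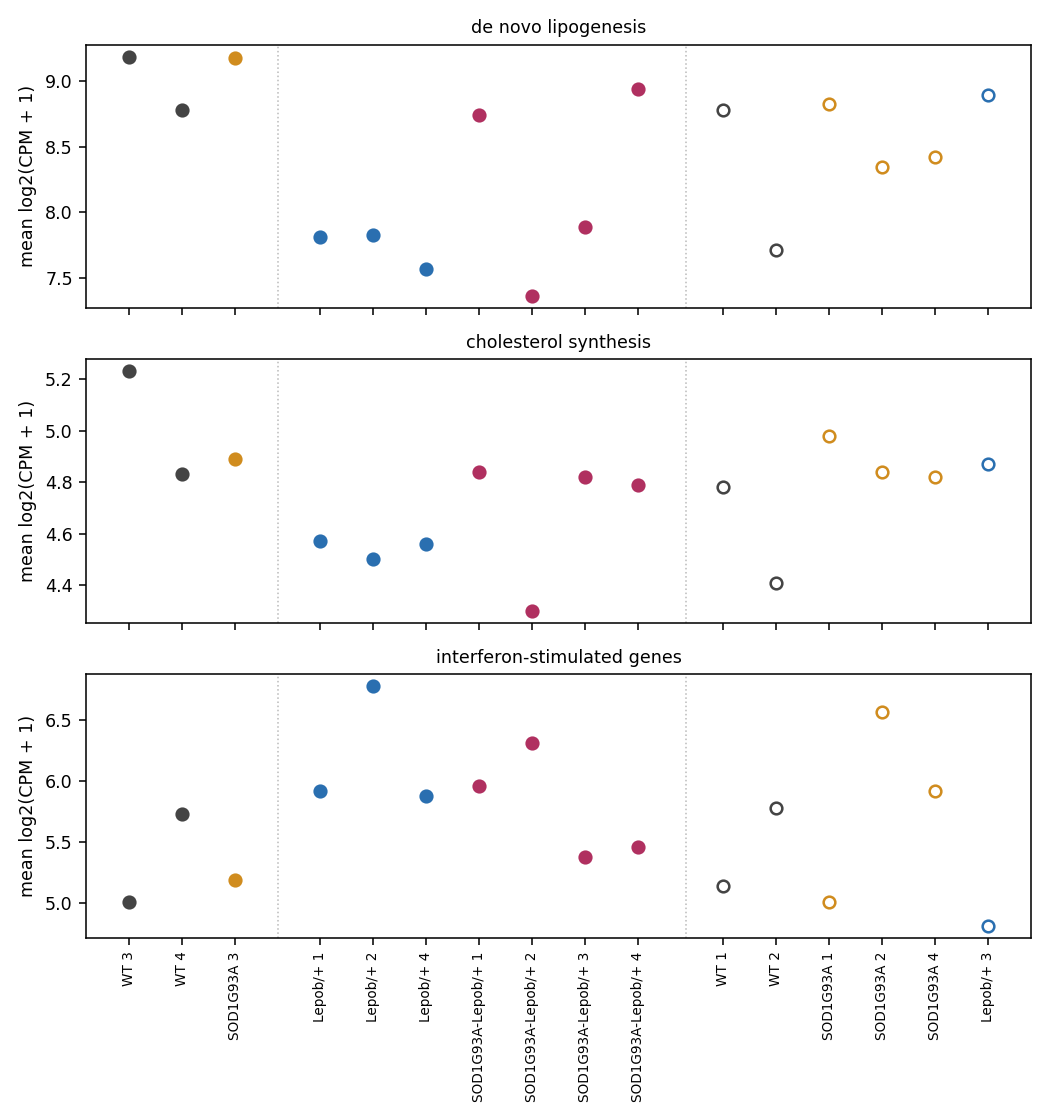
Mean level of 3 gene lists, as log2(CPM + 1) averaged over their members (vertical axis), in each library, with the 3 non-carriers kept at the left, the 7 carriers kept in the middle and the 6 libraries left out (open) at the right. Colours are dark grey for WT, orange for SOD1G93A, blue for Lepob/+ and dark pink for SOD1G93A-Lepob/+. The left-out carrier, Lepob/+ replicate 3, is at 8.90 for lipogenesis, above the 5 left-out non-carriers, and at 4.81 for the interferon list, below them.

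The mammary epithelium list, which marks the gland embedded in this pad in females, was higher in 26 of 28 genes, with a median of 0.55 and 0 genes at an unadjusted p under 0.05. The shift lay mostly in mice with the transgene, which have 1 non-carrier, where 27 of 28 genes were higher (median 0.85). In mice without the transgene 18 were higher and 10 lower (median 0.19). Without SOD1G93A-Lepob/+ replicate 3, the library with Y-linked counts, 7 genes were higher at that threshold (median 0.65), where 2.39% of all genes were. Without Lepob/+ replicate 4, 5 genes of the list were higher (median 0.60), where 3.25% of all genes were. Its summed level was 1026 to 1336 CPM in non-carriers and 901 to 3052 CPM in carriers, the lowest in SOD1G93A-Lepob/+ replicate 3 and the highest in SOD1G93A-Lepob/+ replicate 4. Krt19, an epithelial keratin, had 121 to 197 CPM against 130 to 545 CPM, and Epcam, an epithelial adhesion molecule, 54.0 to 67.5 against 55.6 to 157 CPM. Cell cycle genes were higher in 29 of 30 cases by a median of 0.28, also with 0 at an unadjusted p under 0.05. The resident macrophage list was divided, with 13 of 22 higher, a median of 0.14 and 0 at that threshold. Its direction turned on WT libraries. Without WT replicate 4, 20 of 22 were higher (median 0.65), 4 of them at that threshold, where 2.85% of all genes were. Without WT replicate 3, 6 were higher and 16 lower (median -0.18).

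Of 17 genes of MHC class II and dendritic cells, 16 were lower in carriers (median -0.34), and 3 of these had an unadjusted p under 0.05, where 2.29% of all genes were lower: Itgae, Flt3 and Xcr1, marks or receptors of conventional dendritic cells. All 3 were low, at 0.620 to 3.09 CPM in non-carriers and 0.476 to 2.24 CPM in carriers. In the libraries left out they ran from 3.85 to 24.1 CPM. T cell genes (24 of 26 lower, median -0.41) and B cell genes (17 of 20 lower, median -0.35) lay in the same direction. They belong to the lymph node, whose content was used to select the libraries, and they are given without a test. Without WT replicate 4, the median of the dendritic cell list was -0.04.

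The circadian clock list had 15 of 20 genes lower and 4 lower at an unadjusted p under 0.05, where 2.29% of all genes were. These were Per3, Hlf, Cry2 and Dbp, output or repressor genes of the clock that peak at set times of day. Per3 had 104, 69.4 and 144 CPM in non-carriers and 56.8 to 80.3 CPM in carriers, with WT replicate 4 inside the range of carriers. The labels give no time of day. Without WT replicate 3 or SOD1G93A replicate 3, 1 clock gene was lower at that threshold, Per3 in the former case and Cry2 in the latter. The 23 immediate early genes split, with 11 higher and 12 lower and a median of -0.04, and the 4 at an unadjusted p under 0.05 were lower (2.29% of all genes were), among them Egr1 (94.5, 139 and 44.7 against 29.7 to 63.5 CPM) and Fosb, which was highest in WT replicate 4 at 18.5 CPM. Without WT replicate 4, 0 of the 23 were lower at that threshold. Of the blood vessel endothelium list, 17 of 25 genes were lower, with a median of -0.03. In this list 1 gene was lower at an unadjusted p under 0.05, where 2.29% of all genes were. It was Kdr, a VEGF receptor, with a log2 fold change of -0.47 (edgeR unadjusted p = 0.00975). Gpx1, a glutathione peroxidase, varied widely in carriers, with 465 to 506 CPM in 3 libraries and 69.0 to 129 CPM in 4, beside 62.9 to 89.8 CPM in non-carriers. Of the non-carriers left out, WT replicate 2 had 439 CPM, SOD1G93A replicates 1 and 2 had 300.2 and 317 CPM, and the other 2 had 65.5 and 67.6 CPM, so high levels were not limited to carriers.

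The study named 5 genes for Lepob/+ against WT in this tissue, with Ddit4 higher and the other genes lower. They were followed in the libraries kept. Itgav, an integrin subunit, had 26.0 and 24.3 CPM in WT replicates 3 and 4 but 2.92 CPM in SOD1G93A replicate 3. Of the 7 carriers, 6 had 2.95 to 4.52 CPM and SOD1G93A-Lepob/+ replicate 1 had 33.1 CPM. Like Tmem127, Itgav thus took either a low or a high level, and both occurred among carriers and among non-carriers. Of the libraries left out, WT replicate 2 had 34.2 CPM and the others 4.12 to 7.38 CPM. The edgeR log2 fold change was -1.12 ± 0.85 (SE; adjusted p = 0.998), and DESeq2 gave -1.97 with an adjusted p of 0.0478. DESeq2 ran with its default settings, which replace outlying counts in groups of at least 7 libraries. Its value may therefore leave out the 33.1 CPM of SOD1G93A-Lepob/+ replicate 1, and this call cannot be read as one on the levels above.

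Aqp5, a water channel of glands, had 76.6 and 59.4 CPM in the 2 WT libraries, 10.4 CPM in SOD1G93A replicate 3 and between 13.2 and 77.1 CPM among the carriers. Ddit4, an inhibitor of mTOR signalling, had 36.7, 18.5 and 58.4 CPM against 16.5 to 84.8 CPM. Both overlapped between all carriers and all non-carriers kept. In the study's own contrast, Lepob/+ against WT, neither gene overlapped in the libraries kept. Lepob/+ replicates 1, 2 and 4 had 17.9, 20.5 and 15.1 CPM of Aqp5, below WT, and 72.8, 66.9 and 72.0 CPM of Ddit4, above WT. The study used these libraries too, so this is no independent check. Gm128 had 0 to 0.376 CPM in the libraries kept, and Gm4613 had 60 and 52 counts in WT replicates 3 and 4 and 0 counts in the other 8 libraries. In the libraries left out, Gm4613 had 94, 90 and 61 counts in WT replicate 1 and SOD1G93A replicates 2 and 4, and 0 in the other 3.

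The effect of the ob allele was also read separately without and with the transgene. Among mice without it, 3 Lepob/+ libraries against 2 WT libraries, the median log2 fold change was -1.03 for lipogenesis, -0.60 for cholesterol synthesis and 0.79 for the interferon-stimulated list. Among mice with it, 4 SOD1G93A-Lepob/+ libraries against SOD1G93A replicate 3 alone, the medians were -0.72, -0.21 and 0.64, so the sign of each list was the same in both. The second comparison has 1 non-carrier, whose spread is unknown and was taken to be like that of the carriers. In a single edgeR fit of the interaction between both mutations, 2 genes were called (0.0105%) and 353 had an unadjusted p under 0.05 (1.86%). Both calls turned on that 1 library. Rlf stood at 0.180 CPM in it, whereas the other 15 libraries had 17.9 to 32.4 CPM (adjusted p = 0.000246), and Tbc1d24 had 1.68 CPM there and 10.8 to 18.5 CPM elsewhere (adjusted p = 0.0482). The Tbc1d24 call was lost without WT replicate 3 or 4, without Lepob/+ replicate 1, or without any one of SOD1G93A-Lepob/+ replicates 1 to 4. Cish was not called, with an interaction log2 fold change of 2.14 ± 0.64 (SE), more in mice with the transgene. This value rests on the same library, at 1.63 CPM of Cish. The left-out SOD1G93A replicates 1, 2 and 4 had 16.6, 6.40 and 21.1 CPM.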

How the data were processed

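The deposited values were raw counts per Ensembl gene, made by the authors from paired reads of mRNA libraries: fastp filtering, HISAT2 2.1.0 alignment to mm10 and featureCounts 2.0.2 on uniquely mapped reads, per the labels and the study's methods. Strand setting and annotation release are not given in the sources used here, so overlapping and antisense genes cannot be told apart, and the labels and the methods name different library kits. Coordinates are those of GENCODE M21 (GRCm38). Of 54752 gene IDs, 54723 had a symbol.

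The libraries were selected on Glycam1 at or below 1 CPM of the column total. The members, gene lists and named genes were chosen with earlier results of these data known. Genes passing filterByExpr (min.count 10, min.total.count 15) were scaled by TMM and compared between 7 carriers and 3 non-carriers with edgeR 4.0.16 (quasi-likelihood, R 4.3.3) and Benjamini-Hochberg adjustment at 0.05. The log2 fold changes used a prior count of 1. DESeq2 1.42.0 and limma 3.58.1 voom were alternatives. CPM levels are after TMM, and the libraries left out were scaled to the same reference. A gene was called muscle if listed so, or if its CPM in both muscle-rich libraries was over 3 times the highest of the other 8, which added 38 genes. The named genes are the leptin axis, 5 genes of the study, the 10 smallest p-values in each direction with a mean of at least 1 CPM in a group, leaving out predicted genes and muscle, and up to 4 genes of each list. Acly and Fasn were named outside this rule. Lists are described by counts and medians, with no set test. The procedures were tested on simulated data. Depth was 36.8 to 61.9 M counts per library. The alternatives were other scalings, filters and tools, the transgene as a term, the replicate number as a block, the strata, all 16 libraries, and leaving out libraries.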

Additional observations from a re-analysis of the deposited data

Results flagged for a closer look

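Of 144 tests for a library standing apart within the 7 carriers or within the 4 SOD1G93A-Lepob/+ libraries, 17 passed Dixon's 95% value, and chance gives about 1 in 20. In the library labelled SOD1G93A-Lepob/+ replicate 3, Lep was 1749 CPM where the other carriers had 426 to 660, Xist was 0, and Ppp1r3b was 15.52 CPM where the other 3 libraries of its genotype had 11.3 to 11.8. In Lepob/+ replicate 4, the muscle-rich library, Sh2b1 was 106.4 CPM where the other carriers had 45.5 to 54.5, and Angptl4 was 235.8 CPM where they had 382 to 490. In SOD1G93A-Lepob/+ replicate 1, Itgav was 33.13 CPM and Hpca 2.771 CPM. In SOD1G93A-Lepob/+ replicate 4, Tmem127 was 7.67 CPM and Sorcs2 12.31 CPM. In SOD1G93A-Lepob/+ replicate 2, Tspan4 was 61.12 CPM and Scd2 134.7 CPM. Isg15 was 95.41 CPM in Lepob/+ replicate 2, where the other carriers had 18.0 to 50.7. The difference between the effect of the ob allele with and without the transgene passed the edgeR adjusted threshold for Rlf, at a log2 value of 6.54, and for Tbc1d24, at 3.53, and both rest on SOD1G93A replicate 3, the 1 non-carrier with the transgene.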

How the results depend on the processing

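With 3 non-carriers, 1 library weighs heavily. DESeq2 size factors, TMM without muscle, both filters and the transgene as a term left the counts of calls at 0. DESeq2 called 32 higher and 24 lower genes (657 higher at an unadjusted p under 0.05) and 30 interaction genes. Voom called 4 and 7 (1020 and 981 unadjusted), with Aqp5 at 0.41, Gm128 at 0.00371 and the thermogenic median at -0.53. Without the muscle-rich libraries edgeR called 3 and 1, with Ptpn1 at -0.00291, Aqp5 at 0.046 and Gm128 at 0.044. Leaving out the library with Y-linked counts too, chosen after seeing the data, gave 2 and 2 (653 higher unadjusted), Ptpn1 -0.0011, Bcl3 -0.0155, Aqp5 0.22, Gm128 0.29 and the inflammatory median 0.0764. All 16 libraries gave 795 higher and 743 lower unadjusted, Lep 0.61, Lepr -0.49, Socs3 -0.16, Ptpn1 -0.13, Ptpn2 -0.19, Bcl3 -0.34, Cry2 0.011, and medians of -0.0267 for the leptin axis, 0.15 for mature adipocytes, 0.13 for inflammatory cytokines and -0.14 for the cell cycle. Mice without the transgene gave 180 higher unadjusted, Socs3 -0.11, Ptpn1 -0.0989, Sh2b1 0.17, Irs1 -0.00139, Bcl3 -0.00444 and an inflammatory median of 0.11. Mice with it gave 1 call, higher, Lepr -0.0823, Aqp5 2.07, Itgav 1.93, Gm128 3.27, Ddit4 -0.32, Egr1 0.13, Xcr1 0.011, and medians of 0.22 for the leptin axis, -0.21 for cholesterol synthesis, 0.71 for inflammatory cytokines, 0.011 for MHC class II, 0.69 for the cell cycle, -0.29 for glucocorticoid response and 0.17 for immediate early genes. Of 6 same-numbered pairs, 1 correlated above 0.1 (range -0.52 to 0.23). The lowest value was that of WT replicate 4 with the muscle-rich Lepob/+ replicate 4. So few pairs, from groups of few libraries, cannot settle whether the numbers pair the samples. The replicate block called 0 genes, with Lep 0.56, Socs3 -0.22, Sh2b1 0.0748, Bcl3 -0.0452 and medians of 0.28 for the leptin axis and 0.11 for interferon-stimulated genes. The interaction was refitted without each library except SOD1G93A replicate 3, the 1 non-carrier with the transgene, and the number of its calls moved. For carriers against non-carriers, leaving out each library in turn gave 0 to 2 higher and 0 to 3 lower calls. At an unadjusted p under 0.05 it gave 249 to 608 higher and 275 to 773 lower genes. The Lep difference in mean log2 level was then -0.39 to 0.0402. The log2 fold changes were -0.42 to 0.20 for Lep, -0.0719 to 0.25 for Socs3, -0.0297 to 0.24 for Ptpn1, -0.0162 to 0.30 for Irs1, -0.27 to 0.00534 for Sh2b1 and -0.11 to 0.23 for Bcl3. The medians ran from -0.50 to -0.20 for cholesterol synthesis, 0.11 to 0.22 for the leptin axis, 0.12 to 0.60 for inflammatory cytokines, -0.53 to -0.0394 for MHC class II and 0.10 to 0.67 for the cell cycle. The cause of these shifts was not tested.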
